A study of Mus musculus with 6 samples.

Results

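Ubiquitin precursor genes and deubiquitinase genes were examined in peak lists from chromatin immunoprecipitation followed by sequencing of Flag-tagged OTUD3, which is itself a deubiquitinase. The 58 genes were taken from a list drawn up by gene family, out of 21887 protein-coding genes on chromosomes 1 to 19, X and Y. They comprised 2 ubiquitin precursor genes, 12 genes of the ovarian tumour (OTU) family, 36 of the ubiquitin-specific protease (USP) family, 4 ubiquitin C-terminal hydrolases (UCH), 2 Josephin genes, 1 metalloprotease of the JAMM family and the ubiquitin ligase gene Stub1. A gene was counted as hit in a library when the summit of a deposited peak lay inside it or within 5 kb of it. Summits within 1 kb of either annotated gene end were also counted apart.

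The chromatin came from epididymal fat of mice that had received, by intraperitoneal injection, an adeno-associated virus of serotype 2 encoding OTUD3 with a Flag tag, and the tissue was taken 4 weeks later. The labels name the source as adipocytes, and give no strain, sex, age or promoter of the vector. Each of 3 anti-Flag libraries (replicates 1, 3 and 4) contributed a peak list, and the input libraries with these numbers were not analysed here. The tissue of every library had received the vector, and none from tissue without it was analysed here. Since nothing in the labels ties the libraries to different mice, the spread between them may be technical. Peaks do not measure expression, so the labelled cell type could not be checked against marker genes.

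Ubiquitin is a small protein that is attached to other proteins by the successive action of activating, conjugating and ligating enzymes, and it marks many of them for the proteasome. Cells make it as precursors, either as a head-to-tail polyubiquitin or fused to a ribosomal protein, and deubiquitinases release the single unit, trim chains and remove ubiquitin from substrates. The deubiquitinase families differ in their catalytic fold: USP, OTU, UCH and Josephin enzymes are cysteine proteases, and JAMM enzymes use zinc. In fat cells the turnover of nuclear receptors and of insulin signalling proteins is among the processes under their control.

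Peaks rested on few fragments in all 3 lists, and the total depth of the libraries is unknown. The lists held 11871, 6531 and 13496 distinct intervals in replicates 1, 3 and 4, with a median of 4, 6 and 5 fragments at the summit and a lowest background of 0.407, 1.17 and 0.839 fragments. Intervals that overlapped another list made up 0.901%, 1.35% and 0.763% of these lists. The labels speak of single-end as well as paired-end reads, so what is called a fragment here may be a sequenced fragment or a single read extended by the peak caller. A peak of so few fragments carries a large counting error, and its presence in 1 list alone is a description of that library. Fold enrichment (the summit over the local background), p and q are the authors' values from the peak caller.

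Of the 58 genes, 23 were hit in replicate 1, 14 in replicate 3 and 23 in replicate 4 (mean 34.5% ± 8.96, SD, n = 3). Over all protein-coding genes the same count gave 25.2%, 15.8% and 23.8%. The member genes were longer than most, with a median length of 41.3 kb against 17.2 kb for all protein-coding genes, and long genes hold more peaks. The plain comparison with all genes therefore mixes in length. Each member was set beside the 200 other genes nearest to it in length, 100 shorter and 100 longer. At the rate of those genes 18.4, 11.8 and 18.2 members would be hit, so the members' count was 1.25, 1.18 and 1.26 times that number (mean 1.23 ± 0.0419, SD, n = 3). Without Ubb, described below, the mean was 1.17 ± 0.0600. This ratio is a description of 3 lists, and no test over genes was made.

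The ratio was smaller when the weaker peaks were left out. With peaks at or above the median fold of their own list, 11, 8 and 10 members were hit, against 10.9, 6.71 and 10.2 at the rate of genes of like length, and the mean ratio was 1.06. With the same number of peaks taken from each list by lowest p, the counts were 12, 14 and 9 and the mean ratio was 1.05. Replicate 4 then lay below the rate of genes of like length under both settings, at 10 against 10.2 and 9 against 9.82 members, and likewise at a p of at most 0.001, where it hit 12 against 12.6. In the gene body alone replicate 3 lay below it, at 9 against 10.1.

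**Figure D1:**
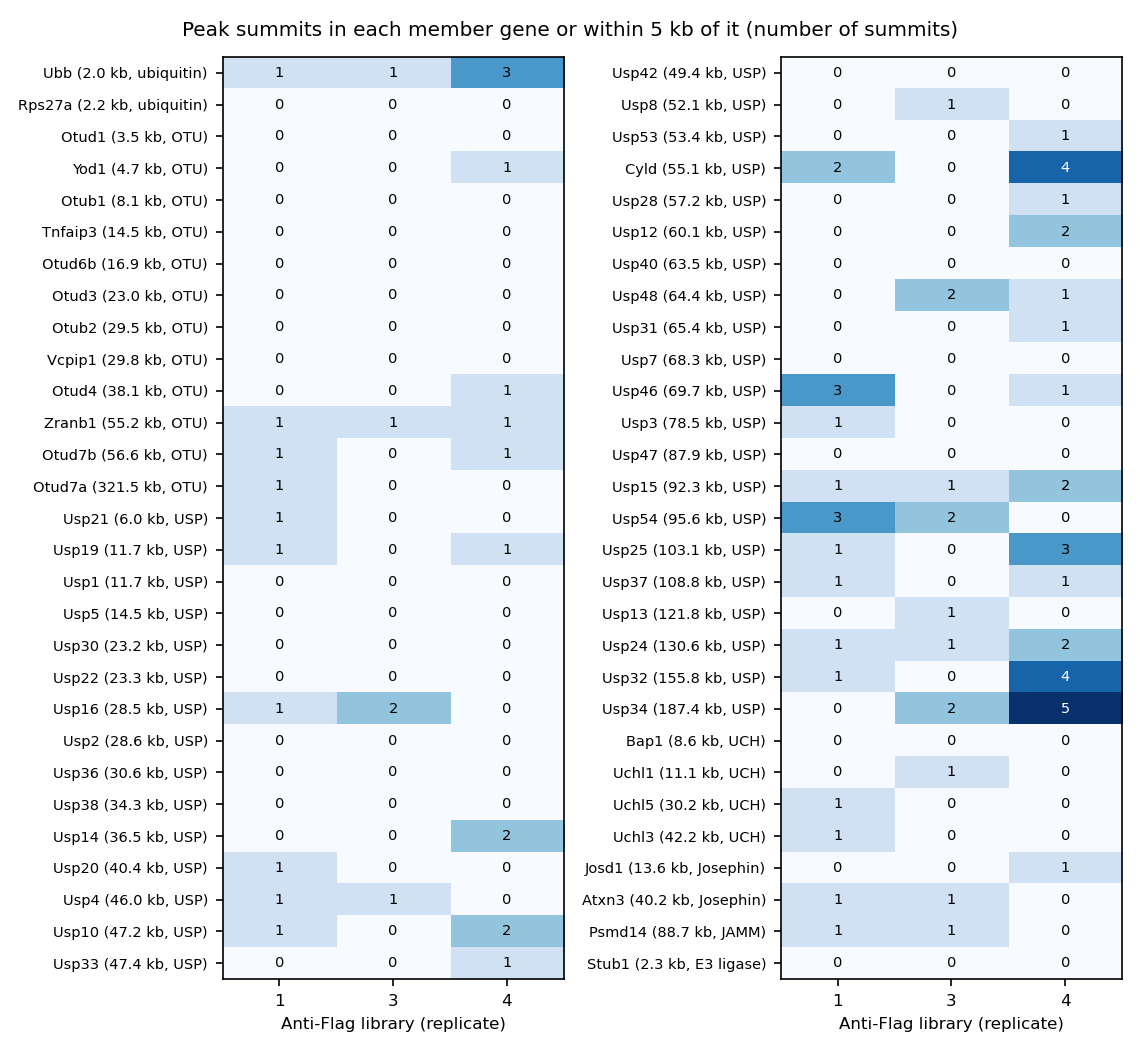
Number of summits in each of the 58 genes or within 5 kb, one row per gene (name, length in kb and family, ordered by family and length) and one column per anti-Flag library. Most cells hold 0, Ubb has 1, 1 and 3 summits, and the highest single count is the 5 summits of Usp34 in replicate 4.

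The libraries hit the same genes in few cases. In all 3 lists 4 members were hit, namely Ubb, Zranb1, Usp15 and Usp24, against 4.40% of all genes and 2.86 members at the rate of genes of like length. At least 2 lists hit 19 members (16.2% of all genes, 12.9 members at the rate of like length). At least 1 list hit 37 members (44.2% of all genes, 32.6 members at that rate), and 21 members had no summit in any list. The pairs of lists left when replicate 1, 3 or 4 was dropped shared 6, 12 and 9 of the members, against 5.46, 7.82 and 5.34 at the rate of genes of like length and 7.31%, 10.3% and 7.38% of all genes. The count of 6, from replicates 3 and 4, was near that rate. With peaks at or above the median fold, with equal numbers of peaks, or at a p of at most 0.001, 0 members were hit in all 3 lists, against 0.725, 1.14 and 1.35 at the rate of like length.

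No site was shared. Of the 88 summits at the members, 0 belonged to an interval that overlapped an interval of another list, and 0 had a summit of another list within 100 bp. Among the 19 members hit in at least 2 lists, the closest summits of different lists lay 1.195 kb apart at Ubb, 2.07 kb at Usp54, 2.84 kb at Usp34 and 2.93 kb at Usp15. The median of this distance was 15.3 kb and the largest was 53.7 kb at Psmd14. With 0.763% to 1.35% of intervals of all intervals overlapping another list, a count of 0 among 88 is near the level of the lists.

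**Figure D2:**
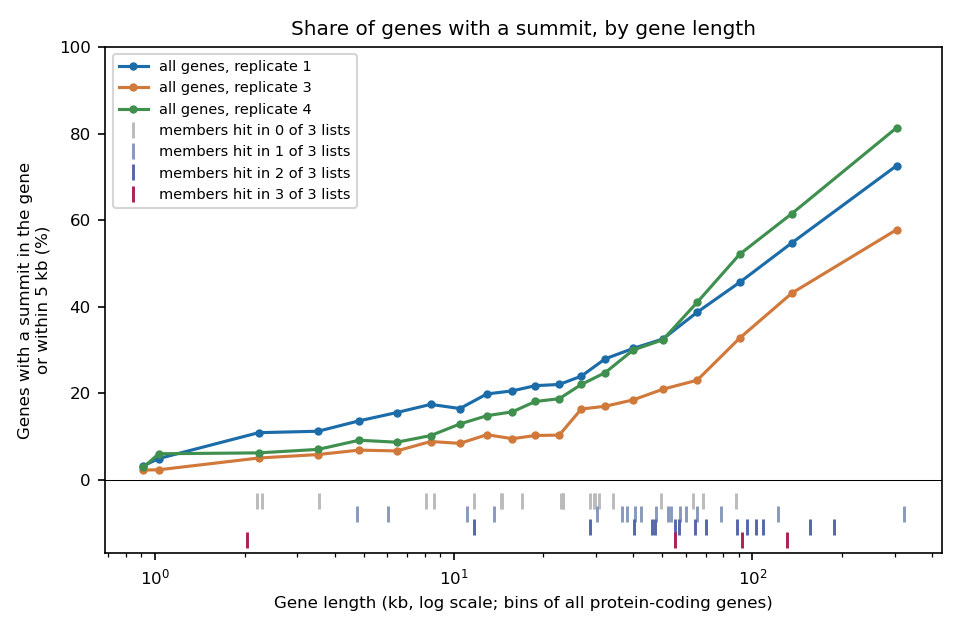
Share of all protein-coding genes with a summit in the gene or within 5 kb (vertical axis, percent) against gene length in 20 bins (log scale) for each library, with the lengths of the members marked below 0 by the number of lists that hit them. The share is below 5% in the shortest bin and above 55% in the longest in every library, and Ubb at 2.04 kb is the only member under 50 kb that was hit in all 3 lists.

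The number of lists that hit a member followed its length. Median length was 23.2 kb for the 21 members with no summit, 44.8 kb for the 18 hit in 1 list, 64.4 kb for the 15 hit in 2 lists and 73.7 kb for the 4 hit in 3 lists. Otud7a, the longest member at 321 kb, was an exception with 1 summit in all, whereas 184 of its 200 neighbours in length had at least 1 and 87 were hit in all 3 lists. At the other end, Ubb is the shortest member. Of the 19 shortest members, up to 28.5 kb, 4, 3 and 4 were hit in replicates 1, 3 and 4, against 3.46, 1.67 and 2.48 at the rate of genes of like length. Of the 19 next in length, up to 55.2 kb, 8, 4 and 7 were hit, against 5.88, 3.65 and 5.48. The 20 longest had 11, 7 and 12 hit, against 9.04, 6.50 and 10.3. The counts thus lay above those of like length in each of these groups and each library, by less than 1 gene in 3 of the 9 cases. Ubb is in the shortest group and was hit in each library, whereas 10.5%, 5% and 9% of genes of its length were. In replicate 1 the excess of the shortest group, 4 against 3.46, was smaller than what Ubb alone adds.

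Ubb encodes a polyubiquitin and is one of the genes that keep the pool of free ubiquitin supplied under stress. It lies on chromosome 11 from 62551171 to 62553213 and had 1, 1 and 3 summits in replicates 1, 3 and 4. Replicate 1 placed its summit inside the gene, 660 bp from the gene start, with a fold of 3.55 from 4 fragments (q = 0.651). Replicate 3 placed it 2.28 kb beyond the gene end, with a fold of 3.68 from 7 fragments (q = 0.745). The summits of replicate 4 all lay beyond the gene end, 0.667, 3.476 and 4.109 kb away, with folds of 2.72, 2.49 and 2.49 from 4 fragments each (q = 1 for each). No peak of one library overlapped that of another, and the folds of replicate 4 lay below the median of their list. Of the 200 genes nearest to Ubb in length, 44 had a summit in any list, 5 in 2 lists and 0 in all 3, and the most any of them held was 2 summits against 5 at Ubb. Without its flanks Ubb was hit in replicate 1 alone. Its coding sequence is made of near-identical repeats, and none of the sources used here says how reads that match several places were handled.

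The other precursor, Rps27a, encodes ubiquitin fused to a ribosomal protein. It is 2.199 kb long and had no summit within 5 kb in any list, as did 162 of the 200 genes nearest to it in length. Its nearest summits lay 11.7, 192 and 40.8 kb away.

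**Figure D3:**
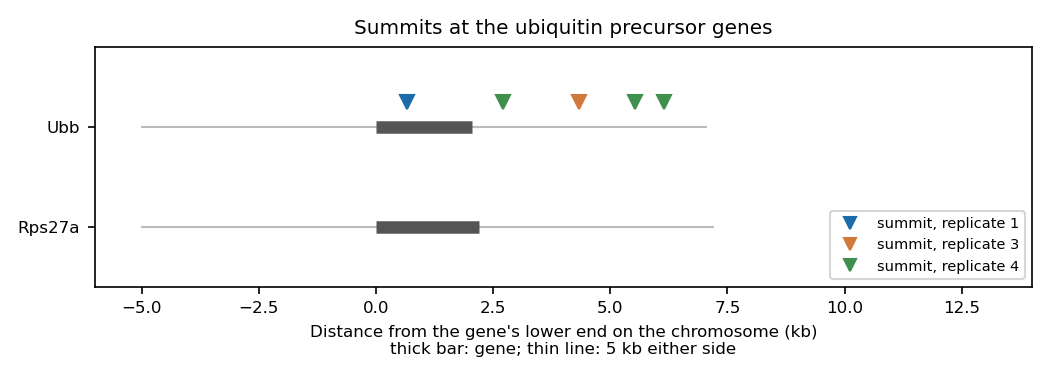
Summits at Ubb and Rps27a by distance in kb from the end of the gene with the lower coordinate, with the gene as a thick bar, 5 kb either side as a thin line and a triangle for each summit, coloured by library. Ubb has 5 summits, 1 of them inside the gene, and Rps27a has 0.

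The sequence before the annotated starts is shown for the 4 members with a summit within 1 kb of a start, since these are the only members where a peak bears on that end. Starts and strand were taken from RefSeq windows on GRCm38.p6, which matched 47 of the 58 members, some with several starts. Over 51 such windows 1 lay under a peak, that of the inner start of Ubb at 62551731, which the peak of replicate 1 covers with its summit 100 bp further on. In the first sequence below, from chr11:62551481-62551730 on the plus strand, capitals mark the 97 bases under that peak. In the others capitals mark a GC box (GGGCGG) or a CCAAT box (CCAAT) on either strand, and no peak overlapped the window. These are the 250 bases before the outer start of Ubb (chr11:62550921-62551170), before Uchl5 (chr1:143777028-143777277), before Psmd14 (chr2:61711444-61711693) and before Cyld (chr8:88696778-88697027), all on the plus strand and written in the direction of the gene.
Ubb, inner start: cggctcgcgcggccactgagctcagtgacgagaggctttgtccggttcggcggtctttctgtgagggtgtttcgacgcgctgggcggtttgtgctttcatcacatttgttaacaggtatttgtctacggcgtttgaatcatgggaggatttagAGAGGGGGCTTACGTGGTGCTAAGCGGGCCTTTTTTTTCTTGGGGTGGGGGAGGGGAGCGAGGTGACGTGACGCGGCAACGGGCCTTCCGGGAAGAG
Ubb, outer start: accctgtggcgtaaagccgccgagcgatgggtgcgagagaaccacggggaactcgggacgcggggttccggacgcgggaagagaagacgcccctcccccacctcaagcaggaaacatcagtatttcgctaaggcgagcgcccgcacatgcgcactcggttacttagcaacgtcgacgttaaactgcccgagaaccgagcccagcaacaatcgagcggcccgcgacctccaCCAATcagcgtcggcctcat
Uchl5: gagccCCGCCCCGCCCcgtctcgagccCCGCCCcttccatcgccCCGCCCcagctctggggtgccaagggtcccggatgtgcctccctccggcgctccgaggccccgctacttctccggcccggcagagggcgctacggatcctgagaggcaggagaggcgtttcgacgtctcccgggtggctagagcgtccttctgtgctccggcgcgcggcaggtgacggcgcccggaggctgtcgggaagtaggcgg
Psmd14: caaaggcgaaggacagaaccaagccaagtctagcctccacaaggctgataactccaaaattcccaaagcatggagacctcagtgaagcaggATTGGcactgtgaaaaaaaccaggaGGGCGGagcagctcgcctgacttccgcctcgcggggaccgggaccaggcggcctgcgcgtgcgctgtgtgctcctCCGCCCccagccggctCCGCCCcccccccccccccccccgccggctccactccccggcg
Cyld: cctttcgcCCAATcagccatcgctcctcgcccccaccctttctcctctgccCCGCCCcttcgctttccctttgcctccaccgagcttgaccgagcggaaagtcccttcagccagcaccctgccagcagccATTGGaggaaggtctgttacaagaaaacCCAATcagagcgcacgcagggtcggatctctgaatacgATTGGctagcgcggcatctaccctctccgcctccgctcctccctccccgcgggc

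These windows are rich in CpG dinucleotides. The 250 bases hold 22 CpG before the inner Ubb start, 30 before the outer one, 30 before Uchl5, 18 before Psmd14 and 18 before Cyld, against a median of 24 over the members' windows and 10 over 21263 windows of protein-coding genes. GC boxes numbered 4 before Uchl5, 3 before Psmd14, 1 before Cyld and 1 before the inner start of Ubb. A GC box was present in 70.6% of the members' windows and 42.6% of all windows. Cyld had 4 CCAAT boxes, and Psmd14 and the outer start of Ubb had 1 each, and 23.5% of the members' windows against 35.4% of all windows held one. The heat shock element (GAANNTTC, both strands) was found in neither Ubb window, in 3.92% of the members' windows and in 6.17% of all. The E-box CACGTG stood in 17.6% of the members' windows and 6.63% of all, the cyclic AMP response half-site TGACGT in 23.5% and 7.37%, and TATAAA in 5.88% and 11.6%. Otub2, Tnfaip3 and Ubb gave several windows each, which were counted apart, so these shares are of windows and not of genes. The GC box, the E-box and the cyclic AMP response half-site each contain a CpG. Whether their higher shares go with the CpG content of the windows was not tested. A match of letters is a description and not a binding site.

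At gene ends the counts were small. A summit lay within 1 kb of an end in 3 members in replicate 1, 1 in replicate 3 and 4 in replicate 4. All genes gave 3.49%, 1.33% and 1.97%, and the rate of genes of like length gives 2.07, 0.730 and 1.13 members. In at least 1 list 7 members had such a summit (6.60% of all genes, 3.85 members at the rate of like length). The count of 4 in replicate 4 fell to 1 at a p of at most 0.001, with folds at or above the list median, and with equal numbers of peaks, against 0.705, 0.55 and 0.5 at the rate of like length. With 500 bp the counts were 0, 0 and 2, against 1.07, 0.3 and 0.505. With 3 kb they were 7, 5 and 8, against 5.38, 2.69 and 3.74, and 8.99%, 4.26% and 6.16% of all genes. No member had an end summit in the same place in different libraries.

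The strongest of these stood near the start of Uchl5, a hydrolase bound to the proteasome and to a chromatin remodelling complex. Its peak on chromosome 1 at 143777701 to 143777953 in replicate 1 had a fold of 4.90 from 6 fragments (q = 0.0977), with the summit 643 bp inside the gene, and the neighbouring gene Ro60 lies within 5 kb of it. No other list had a summit at Uchl5, where the nearest were 489 and 46.4 kb away in replicates 3 and 4. Psmd14, the zinc-dependent deubiquitinase of the proteasome lid, had a summit 506 bp inside its start in replicate 1 (fold 3.16, 4 fragments, q = 0.651). Cyld, which removes chains that relay NF-κB signals, had one 407 bp inside its start in replicate 4 (fold 2.72, 4 fragments, q = 1). At the far ends, Usp16, a deubiquitinase of histone H2A, had a summit 777 bp beyond the gene in replicate 3 (fold 3.45, 7 fragments). Usp10, an enzyme of the stress granule network, had one 700 bp beyond it in replicate 4 (fold 3.07, 5 fragments). Usp25 had one 288 bp inside its end in replicate 4 (fold 2.72, 4 fragments).

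The OTU family, to which OTUD3 belongs, was hit at about the rate of its lengths, with a wide spread. Hits were 3, 1 and 4 of 12 genes in replicates 1, 3 and 4, against 3.26, 2.09 and 3.01 at the rate of genes of like length (mean ratio 0.909 ± 0.425, SD, n = 3). Summits per 100 kb of gene and flank were 0.416, 0.139 and 0.554. In the USP family the same density was 0.766, 0.498 and 1.302. USP genes thus had the higher density in each library. The range of the USP values overlapped that of the OTU values, and the difference was not tested. Single genes weigh on both densities. Otud7a, at 321 kb the longest OTU gene, had 1, 0 and 0 summits in replicates 1, 3 and 4. On the USP side, Usp34, Usp32 and Cyld gave 13 of the 42 member summits of replicate 4. Densities without these genes were not computed.

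Otud3 itself, on chromosome 4 from 138891063 to 138914026, had 0 summits in each list, and the nearest lay 45.0, 28.3 and 55.5 kb away. Of the 200 genes nearest to its 22.96 kb in length 104 also had none. The other members within 20% of its length showed the same: Usp30, a mitochondrial enzyme that opposes mitophagy, and Usp22, the deubiquitinase of the SAGA coactivator complex, had 0 summits in every list.

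Among the other OTU genes, Zranb1, an enzyme that acts on atypical chains in Wnt signalling, had 1 summit in each library. They lay 41.0, 24.3 and 8.14 kb from the gene start in replicates 1, 3 and 4, and the closest pair was 16.2 kb apart. Folds were 3.34, 4.14 and 2.49 from 5, 8 and 4 fragments, and the lowest q was 0.459. Of the 200 genes nearest to Zranb1 in length 12 were hit in all 3 lists. Otud7b, a restraint on non-canonical NF-κB signalling, had 1, 0 and 1 summits, that of replicate 4 being 4.789 kb outside the gene and also within 5 kb of Mtmr11. Otud7a had 1 summit in replicate 1, with a fold of 4.09 from 5 fragments. Otud4 had 1 summit in replicate 4, and Yod1, a partner of the VCP segregase, had 1 in replicate 4 at 2.843 kb before its start, near Pfkfb2. Otud1, Otub1, Tnfaip3, Otud6b, Otub2 and Vcpip1 had no summit in any list. Tnfaip3 is a feedback inhibitor of NF-κB, and its nearest summit lay 47.2 kb away.

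USP genes supplied most of the summits, 67 of 88. Hits numbered 15, 9 and 17 of 36 genes, against 12.9, 8.48 and 13.2 at the rate of genes of like length (mean ratio 1.17 ± 0.112, SD, n = 3). In all 3 lists 2 were hit, against 2.08 at that rate.

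Usp15, which acts on TGF-β receptors and SMAD proteins, had 1, 1 and 2 summits over 92.3 kb. Its folds were 3.55 in replicate 1, 2.62 in replicate 3 and 2.72 and 3.04 in replicate 4, from 4 to 6 fragments. Of its 200 neighbours in length 21 were hit in all 3 lists. Usp24 had 1, 1 and 2 summits over 131 kb, and 27 of its neighbours were hit in all 3 lists. The replicate 1 summit of Usp24 also lies within 5 kb of another gene. In replicate 4 the Usp24 summits had folds of 3.26 and 3.81 from 5 and 6 fragments. Those of replicates 1 and 3 were weaker, with folds of 2.84 and 2.43 from 3 and 5 fragments. With folds at or above the list median Usp24 was hit in 1 list, and Usp15, Ubb and Zranb1 in 2 each.

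The highest count of any member was at Usp34, a very large deubiquitinase that stabilises axin, with 0, 2 and 5 summits over 187 kb. Of the 200 genes nearest in length 14 had as many as its 7 summits or more. One of the replicate 4 peaks, 165 kb from the gene start, had a fold of 4.89 from 8 fragments, and its q of 0.0506 was the lowest at any member. Another, 13.4 kb from the start, had a fold of 4.35 from 7 fragments (q = 0.262). Replicate 1 had no summit at Usp34 and its nearest lay 223 kb away.

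Cyld had 2, 0 and 4 summits over 55.1 kb, and 1 of the 200 genes nearest to it in length held as many. Its folds ran from 2.49 to 3.41 with 4 to 6 fragments, and q was 0.651 or higher at each. Usp32 had 1, 0 and 4 summits over 156 kb and Usp54 had 3, 2 and 0 over 95.6 kb. Usp46, which acts with WD-repeat partners on glutamate receptors, had 3, 0 and 1, and Usp25 had 1, 0 and 3. Usp34, Cyld, Usp32, Usp54, Usp46 and Usp25 each had 0 summits in 1 of the libraries. Usp34, Usp32 and Cyld alone gave 13 of the 42 summits of replicate 4.

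Other USP genes hit in 2 lists were Usp4 (1, 1 and 0), Usp10 (1, 0 and 2), Usp16 (1, 2 and 0), Usp19 (1, 0 and 1), Usp37 (1, 0 and 1) and Usp48 (0, 2 and 1). The replicate 3 summit of Usp4 lies 1.661 kb before the gene and within 5 kb of Gpx1, a glutathione peroxidase gene. Hit in 1 list were Usp3, Usp20 and Usp21 in replicate 1, Usp8 and Usp13 in replicate 3, and Usp12, Usp14, Usp28, Usp31, Usp33 and Usp53 in replicate 4, Usp12 and Usp14 with 2 summits each. Usp21 had the highest fold of the USP genes hit in 1 list, 4.71 from 6 fragments in replicate 1 (q = 0.109), at 1.765 kb before its start and within 5 kb of Ufc1, a conjugating enzyme of the ubiquitin-like protein UFM1. Usp8 acts on endosomal cargo, and its summit of fold 3.68 from 7 fragments lay 2.91 kb before its start.

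No summit was found in any list at 11 USP genes: Usp1, Usp2, Usp5, Usp7, Usp22, Usp30, Usp36, Usp38, Usp40, Usp42 and Usp47. Usp7 controls the stability of MDM2, and Usp5 recycles unanchored chains. Usp47 is the longest of them at 87.9 kb, and 17% of the genes nearest to it in length also had none.

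**Figure D4:**
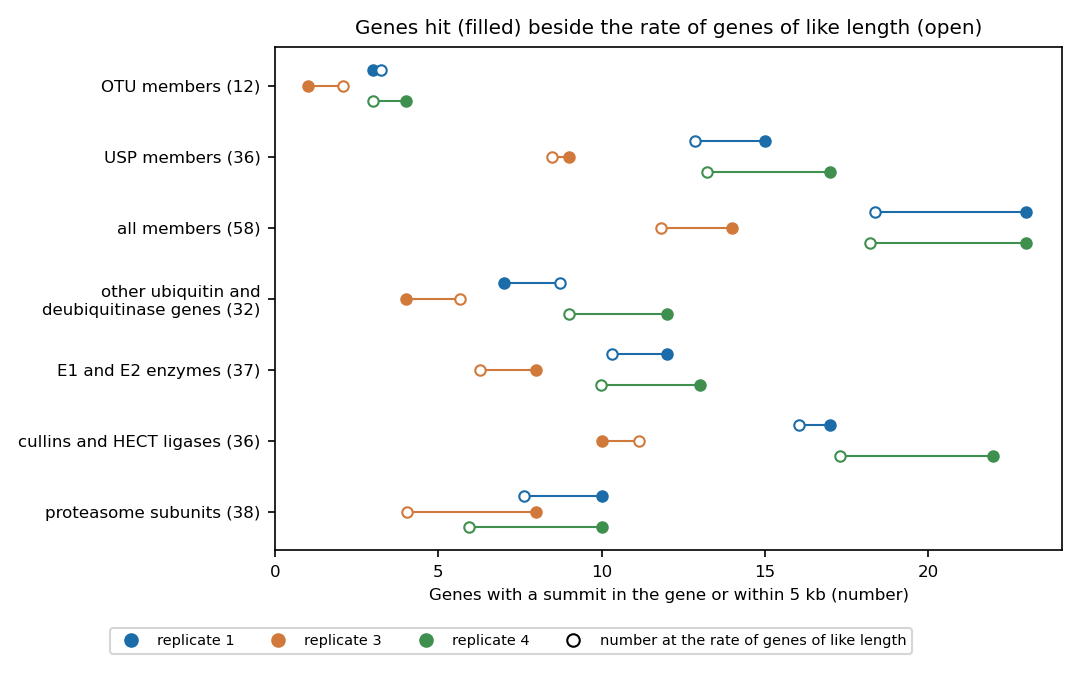
Number of genes with a summit in the gene or within 5 kb (filled circles) beside the number at the rate of genes of like length (open circles), by family and pathway list (number of genes in brackets) and library. Filled circles for all members lie to the right of the open ones in each library, at 23, 14 and 23 against 18.4, 11.8 and 18.2.

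The small families had single hits. Among the UCH genes Uchl5 and Uchl3 had 1 summit each in replicate 1, Uchl1, an enzyme abundant in neurons, had 1 in replicate 3 at 4.026 kb outside the gene, and Bap1, the nuclear histone H2A deubiquitinase, had none. Of the Josephin genes, Atxn3, the polyglutamine protein of a spinocerebellar ataxia, had 1, 1 and 0 summits, 17.0 kb apart, and Josd1 had 1 in replicate 4. Psmd14 had a second summit in replicate 3, inside the gene and 53.7 kb from that of replicate 1. Stub1, the co-chaperone ligase known as CHIP, is 2.286 kb long and had no summit in any list, as did 83.5% of the genes nearest to it in length.

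Summits at members lay mostly inside the genes and were spread along them. Of 88, 67 were inside, 9 before the start, 10 beyond the end and 2 in a flank of genes whose strand was not in the promoter table. By library 25 of 28, 12 of 18 and 30 of 42 were inside. Of the 63 inside genes of known strand, 20 fell in the first part of the gene when it was split evenly in 3, 23 in the middle part and 20 in the last. Another protein-coding gene also lay within 5 kb of 11 of the 88.

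Peaks at the members were weaker than the median of their list in replicate 4 and near it in replicates 1 and 3. Median fold was 3.25, 2.94 and 2.72 in replicates 1, 3 and 4, against 3.20, 3.00 and 3.02 over the whole lists, and the median number of fragments was 4, 6 and 5 in both. Folds ranged from 2.41 to 4.90 and fragments from 3 to 8. At a q below 0.05 there were 0 of 88, against 40, 26 and 67 distinct intervals in the whole lists, or 0.337%, 0.398% and 0.496%. A q above 0.5 was found for 25 of 28, 17 of 18 and 40 of 42 member peaks (89.3%, 94.4% and 95.2%), against 83.9%, 91.2% and 93.3% of the whole lists. In replicate 4, 33.3% of member peaks lay above the median fold of the list, against 50% in replicate 1 and 44.4% in replicate 3.

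**Figure D5:**
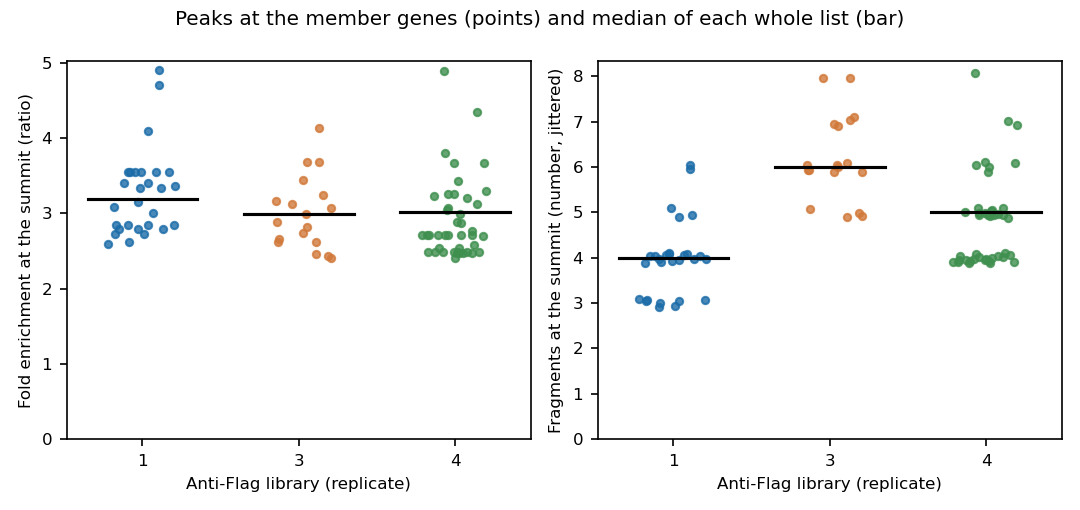
Fold enrichment (left, ratio) and fragments at the summit (right, number) of each peak at the members, by library, with the median of the whole list as a bar. The points lie on both sides of the bars, between folds of 2.41 and 4.90.

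Counting summits in place of genes hit gave a different view, in which genes with several summits weigh more. Summits per 100 kb of member genes and flanks were 0.762, 0.490 and 1.143 in replicates 1, 3 and 4 (mean 0.799 ± 0.328, SD, n = 3), against 0.629, 0.349 and 0.635 in the windows of all protein-coding genes. The ratio was 1.21, 1.41 and 1.80 (mean 1.47 ± 0.299, SD, n = 3), higher than 1 in each library, and highest in replicate 4, where Usp34, Usp32 and Cyld held many of the summits. The density divides by the length of the windows, but the members were not set beside genes of like length here. Whether summits per 100 kb differ between short and long genes was not tested. The share of genes hit by length cannot show this, since it counts a gene once however many summits the gene holds.

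Other genes of the ubiquitin system were counted from lists drawn up by function. A list of 32 further ubiquitin and deubiquitinase genes had 7, 4 and 12 hit in replicates 1, 3 and 4, against 8.72, 5.67 and 9.01 at the rate of genes of like length, and Usp35 alone was hit in all 3 lists. Activating and conjugating enzymes had 12, 8 and 13 of 37 hit, against 10.3, 6.29 and 9.99, with Ube2e2, Ube2h and Ube2q2 in all 3 lists. Cullin scaffolds and HECT ligases had 17, 10 and 22 of 36, against 16.0, 11.2 and 17.3, and 7 of them were hit in all 3 lists, against 4.18 at the rate of like length. Proteasome subunits, which are short genes with a median of 9.997 kb, had 10, 8 and 10 of 38, against 7.61, 4.04 and 5.95 (mean ratio 1.66 ± 0.334, SD, n = 3), with Psmd11 and Psmd13 in all 3 lists. The members' mean ratio of 1.23 thus lay within the range of these lists, from 0.947 to 1.66. For genes hit in all 3 lists, the rate of genes of like length gives 1.335 of the further ubiquitin and deubiquitinase genes. It gives 1.425 of the activating and conjugating enzymes and 0.42 of the proteasome subunits. Among genes of proteins known as OTUD3 substrates or partners, Ppard had 0 in each list, Hspa5 had 0, 1 and 0, and Crebbp had 1, 1 and 0.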

How the data were processed

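Per the submitters' processing notes, the tools were MACS2 2.1.0, fastp 0.19.11 and BWA 0.7.12, and the build was mm10. The deposited lists give 1 peak list per anti-Flag library in narrowPeak columns: the authors' fold ratio, −log10 p and −log10 q of the summit, the summit offset, and a deposited score, which is 10 times the −log10 p rounded down. No source used here says whether input served as control.

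Several summits of 1 interval were reduced to that with the lowest p. Fragments and background were solved from fold, (fragments + 1)/(background + 1), and the Poisson p, which matched within 0.001 on the log10 scale for 100% of intervals. Gene spans and promoter windows came from RefSeq GRCm38.p6, the build mm10 names. Python 3.11.15, pandas 2.3.3, numpy 2.4.6 and scipy 1.17.1 were used, and counting was tested on simulated data. With peak lists for 1 group, no comparison between groups was made.

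Members and lists were chosen with earlier results of these data known. Named were Otud3, Ubb, Rps27a, Stub1, members with an end summit, those hit in all 3 lists, any at a shared region or with a q below 0.05 (0 of each), and members within 20% of the length of Otud3. Other genes were named after their values were seen.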

Additional observations from a re-analysis of the deposited data

How the results depend on the processing

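Counts rest on 3 to 8 fragments per peak, so depth limits each single hit. With p of at most 0.001, replicate 4 hit 12 members, and all 3 lists hit 0, with a mean ratio to genes of like length of 1.13. With folds at or above the list median the libraries hit 11, 8 and 10, all 3 lists hit 0, and the ratio was 1.06. With equal numbers of peaks by lowest p, replicates 1 and 4 hit 12 and 9, all 3 lists hit 0, and the ratio was 1.05. The gene body alone gave 9 in replicate 3 and a ratio of 1.12, and 10 kb either side a ratio of 1.30. Chromosomes 1 to 19 alone gave 1.18. Leaving out 1 replicate gave ratios of 1.22 to 1.26, and 6 to 12 members hit in both lists left. At least 2 lists hit 19 members, against 12.9 at the rate of genes of like length and 16.2% of all genes. The mean ratio lay above 1 under each of these settings, single libraries excepted (replicate 4 with the stronger peaks, replicate 3 with the gene body alone), and the cause of the lower values was not tested. Within 1 kb of gene ends, replicate 4 had 1 member at p of at most 0.001, 1 at folds at or above the median and 1 with equal numbers of peaks. The rate of genes of like length gives 0.705, 0.55 and 0.5 members under these settings. With 500 bp the counts were 0, 0 and 2, against 1.075, 0.3 and 0.505 at that rate and 1.74%, 0.635% and 0.918% of all genes. With 3 kb they were 7, 5 and 8, against 5.385, 2.685 and 3.74 and 8.99%, 4.26% and 6.16% of all genes. Shared regions were 0 under 50% reciprocal overlap, with summits within 100 bp and without any 1 replicate. No paired analysis was possible because the input libraries that share the replicate numbers have no peak list here.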

Other observations

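Among all 5034 protein-coding genes of up to 5 kb, Ubb and Jun alone were hit in all 3 lists, Jun with 2, 1 and 1 summits in replicates 1, 3 and 4. Short genes with 5 or more summits over the 3 lists included Ubb with 5, Zfp36 with 6 and Junb with 7. Zfp36 encodes an mRNA-destabilising protein, Junb and Jun encode AP-1 transcription factors, and all 3 are immediate-early genes. Replicate 1 gave 5 of the 6 summits at Zfp36 and 6 of the 7 at Junb, and replicate 4 gave 0 at both, whereas replicate 4 gave 3 of the 5 at Ubb. These genes were picked for their counts, so the values are a description.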
